A study of Xenopus tropicalis with 5 samples.

Results

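The collagen gene col4a5 carried 36 of the 23009 m5C sites found in at least 1 of 4 lists of methylated cytosines from X. tropicalis stage 0 embryos. The members are all rows whose gene symbol is col4a5 (gene19277 in the files), paired across the lists by their position and strand. The gene was selected on its number of listed sites, so that number and its rank among genes are given as a description with no test. Wild-type embryos were pooled for RNA isolation, and polyadenylated RNA was converted with bisulfite and sequenced. The 5 libraries carry the input labels 5 ng, 10 ng and 20 ng (1 library each) and 100 ng (2 libraries), with stage, tissue and conversion shared by all. The 2 libraries of 100 ng were deposited as 1 combined set of values, so there is no spread between replicates for any value in this report. The study calls replicates technical in one place and biological in another, so which kind these are is unclear. The inputs were compared to ask whether methylation levels are measured alike from small amounts of RNA. The protocol of every library names at least 100 ng of RNA for the conversion, which conflicts with the lower inputs, so an input is named here as labelled.

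Type IV collagen is the network-forming collagen of basement membranes, the thin sheets of matrix under epithelia and around muscle. Each molecule is a triple helix of 3 alpha chains, with a long Gly-X-Y repeat that is broken by short interruptions and a globular domain at its C-terminal end through which molecules join. The alpha 5 chain encoded by col4a5 assembles with the alpha 3 and alpha 4 chains or with the alpha 6 chain, and variants of the human gene cause Alport syndrome, a disease of the kidney, ear and eye. 5-methylcytosine (m5C) in RNA is written by DNMT2 and by enzymes of the NSUN family. Bisulfite turns unmethylated cytosine into uracil and leaves m5C as it is, so the m5C level of a site is the percentage of its reads that still show a cytosine. An embryo at this stage relies on RNA that was loaded into the egg by the mother.

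All 36 sites lay on the plus strand of chromosome 8 of the X. tropicalis v9.1 assembly, between positions 29755149 and 29807048, a genomic distance of 51899 nt. They are numbered 1 to 36 here from the 5′ to the 3′ end. Exon, codon and sequence around each site were not analysed here. There were 27 col4a5 sites in the 5 ng list, 26 in the 10 ng list, 22 in the 20 ng list and 24 in the 100 ng list, out of 13153, 12341, 13178 and 18524 sites in all. A gene with any site had a median of 2 sites in every list. No gene had more sites than col4a5 at 5 ng, where 2 genes had as many, and 1, 2 and 2 genes had more at 10, 20 and 100 ng.

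The depth of the libraries is not stated in the lists, and the coverage of a site, the number of reads with a C or T there, is the only measure of it. At 5 ng the coverage of col4a5 sites had a lowest, median and highest value of 35, 52 and 81 reads. At 10 ng these were 32, 58 and 97 reads, and at 20 ng 30, 72.5 and 92 reads. At 100 ng they were 103, 360 and 459 reads, so no coverage in a lower list reached the lowest one at 100 ng. Over the 16 sites present in every list, the coverage was a median 0.162, 0.167 and 0.205 of that at 100 ng for 5, 10 and 20 ng. For all 8572 sites of any gene present in every list, these ratios were 0.227, 0.217 and 0.25. Relative to 100 ng, the coverage of col4a5 sites was therefore lower at each lower input than that of the typical site present in every list. The 100 ng coverage combines 2 libraries, and no comparison at like coverage was made. The difference was given no test because the sites of 1 gene share transcripts and reads. A 95% exact (Clopper-Pearson) interval for a level covers counting error only, since reads carry no molecular identifiers here.

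**Figure D1:**
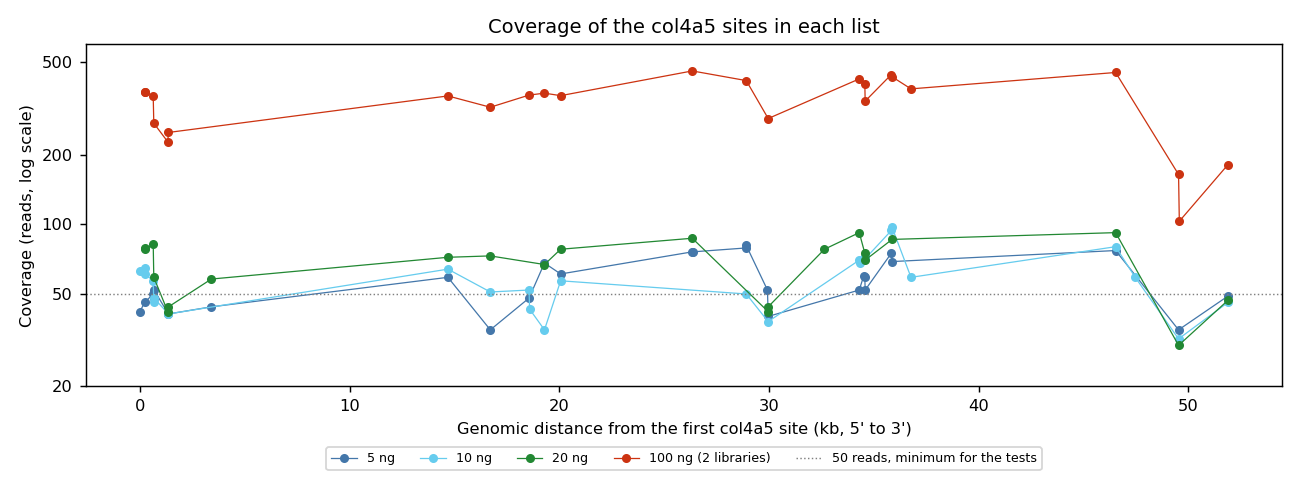
Coverage (reads, log scale) of the listed col4a5 sites against genomic distance from the first site in kb, with a colour for each list and lines joining sites of the same list. The 100 ng values lie between 103 and 459 reads and those of the 5, 10 and 20 ng lists between 30 and 97 reads, and all lists have low values at the 3′ end.

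In every list the median coverage of the listed sites was highest in the middle of the gene. At the 5′ end, the 6 listed of sites 1 to 8 had 227 to 374 reads at 100 ng, with a median of 315. The 15 listed of sites 10 to 32 had 286 to 459 reads with a median of 384, and sites 34, 35 and 36 had 164, 103 and 181 reads. Sites 9 and 33, not listed at 100 ng, were left out of these groups. Near the 3′ end, sites 34 and 36 had 35 and 49 reads at 5 ng, 32 and 46 at 10 ng, and 30 and 47 at 20 ng. Site 34 had the lowest col4a5 coverage of each lower list, shared with site 11 at 5 ng.

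Of the 36 sites, 16 were in every list, 5 were in 3 lists, 5 were in 2 and 10 were in 1. Among the 24 sites of the 100 ng list, 20 were also listed at 5 ng (83.3%), 21 at 10 ng (87.5%) and 19 at 20 ng (79.2%). For all sites of the 100 ng list these shares were 60.2%, 56.9% and 61.3%. The sites that were missing from a lower list were all weak at 100 ng. All 14 col4a5 sites with at least 20% at 100 ng were listed at every lower input. Of the 10 sites under 20% at 100 ng, the 5 ng list held 6, the 10 ng list 7 and the 20 ng list 5. The whole 100 ng list showed the same pattern at like depth: in the range of 103 to 459 reads, 91.1%, 88.4% and 93.2% of 3769 sites of at least 20% recurred at 5, 10 and 20 ng, against 52.5%, 50.8% and 55.7% of 3581 sites under 20%. A site needed a level of at least 10% to be listed, and the 8 sites of the 100 ng list that were missing from at least 1 lower list had 10.2% to 18.3% at 100 ng, with a median of 13.1%. Reads at a site that is not in a list are unknown, so a missing site is not one with a level of 0.

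The other 12 sites were listed only at lower inputs, 9 of them in 1 list, 3 in 2 lists and 0 in 3. Their 15 values had levels of 10.0% to 24.1% with a median of 11.9%. They rested on 5 to 14 unconverted reads (median 7) of a coverage of 42 to 79 reads (median 58), and 10 of the 15 on 7 unconverted reads or fewer. The highest was site 9 (position 29758557), with 14 unconverted of 58 reads at 20 ng and 5 of 44 reads (11.4%) at 5 ng. Site 1 (position 29755149) had 12 of 63 reads (19.0%) at 10 ng and 5 of 42 reads (11.9%) at 5 ng. These low counts set most of the sites outside the 100 ng list close to the minimum for listing. One site of the 100 ng list, site 35 (position 29804724), was in no other: it had 14 of 103 reads (13.6%), the lowest coverage of the gene at 100 ng.

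**Figure D2:**
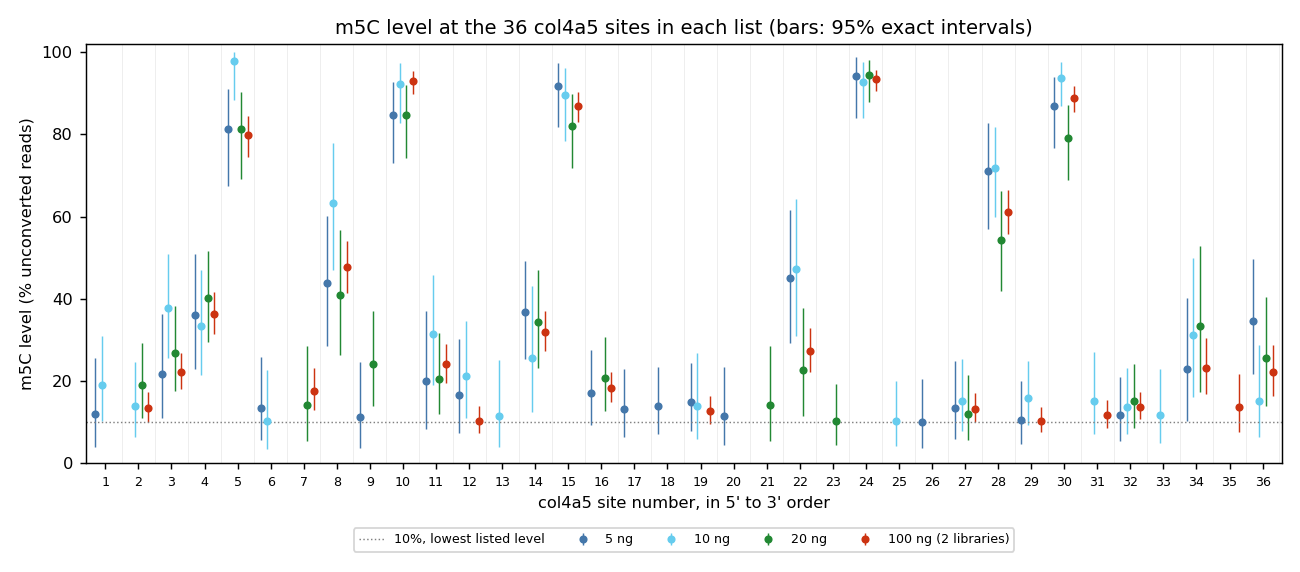
The m5C level (% unconverted reads) of each of the 36 col4a5 sites, numbered from the 5′ to the 3′ end, in the 5, 10, 20 and 100 ng lists, with 95% exact intervals as bars. In the 100 ng list 6 sites are at 61.2% to 93.4% and the other 18 at 10.2% to 47.8%, and most sites found in 1 list only sit near the dotted line at 10%.

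The levels at 100 ng were split here into strongly methylated sites and weak to intermediate ones. Sites 5, 10, 15, 24, 28 and 30 had 60% or more, a limit chosen after the levels were seen, and the other 18 had 10.2% to 47.8%. Sites 28 and 8 crossed this limit between lists, with 54.3% for site 28 at 20 ng and 63.4% for site 8 at 10 ng. All 6 strong sites were in every list, with levels between 54.3% and 97.8% in any of them. They held 61.3% of the unconverted reads of col4a5 at 100 ng and 27% of its coverage. Sites of 60% or more made up 22.2% of the col4a5 sites at 5 ng, 26.9% at 10 ng, 22.7% at 20 ng and 25.0% at 100 ng. Over all sites of each list these shares were 12.1%, 12.4%, 12.1% and 11.5%. At 75% or more they were 18.5%, 19.2%, 22.7% and 20.8% of the col4a5 sites and 6.80%, 6.82%, 6.77% and 6.19% of all sites. In no list did another gene have more sites of 60% or more than col4a5, which had 6, 7, 5 and 6 of them at 5, 10, 20 and 100 ng. At 20 ng llgl1 and smarca4 had as many, and at 100 ng the next genes had 5. One of these, llgl1, had 5 of its 19 sites at 60% or more, against 6 of 24 for col4a5. A share of this size was thus not particular to col4a5. A gene with many sites has more chances to hold a strong one, and these shares and ranks were not tested.

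Site 24 (position 29789459) was the most methylated at 100 ng and varied least of the 16 sites in every list. Unconverted reads made up 94.2% (49 of 52 reads) at 5 ng, 92.9% (65 of 70) at 10 ng, 94.6% (87 of 92) at 20 ng and 93.4% (396 of 424, interval 90.6% to 95.6%) at 100 ng. The 4 levels differed by 1.71 percentage points, less than any of their intervals is wide. Site 10 (position 29769839) had 84.7% (50 of 59 reads) at 5 ng, 92.2% (59 of 64) at 10 ng, 84.7% (61 of 72) at 20 ng and 93.0% (333 of 358) at 100 ng. It was lower at 5 and 20 ng than at 10 and 100 ng, and its 4 intervals overlapped. Site 30 (position 29791023) had 87.0% (60 of 69 reads) at 5 ng, 93.8% (91 of 97) at 10 ng, 79.1% (68 of 86) at 20 ng and 88.9% (385 of 433) at 100 ng. The interval at 20 ng, 69.0% to 87.1%, reached just past the lower bound of 87.0% at 10 ng. Site 15 (position 29775216) had 91.8% (56 of 61 reads) at 5 ng, 89.5% (51 of 57) at 10 ng, 82.1% (64 of 78) at 20 ng and 86.9% (312 of 359) at 100 ng. At both sites the lowest of the 4 levels was that of the 20 ng list.

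Site 5 (position 29755811), the strong site nearest to the 5′ end, had 81.2% (39 of 48 reads) at 5 ng, 97.8% (45 of 46) at 10 ng, 81.4% (48 of 59) at 20 ng and 79.9% (218 of 273) at 100 ng. Only the 10 ng level stood apart, with an interval of 88.5% to 99.9% against 74.6% to 84.4% at 100 ng. This was the single site of the 16 at which 2 of the 4 intervals did not overlap. Site 28 (position 29789740) had 71.2% (37 of 52 reads) at 5 ng, 71.8% (51 of 71) at 10 ng, 54.3% (38 of 70) at 20 ng and 61.2% (208 of 340) at 100 ng. It was the weakest of the strong sites, and its intervals overlapped in all 4 lists.

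The 10 other sites in every list had levels of 11.7% to 63.4%. The highest of them at 100 ng was site 8 (position 29756511), with 43.9% (18 of 41 reads) at 5 ng, 63.4% (26 of 41) at 10 ng, 40.9% (18 of 44) at 20 ng and 47.8% (119 of 249) at 100 ng. Its 10 ng value was the only one of 60% or more outside the 6 strong sites. Site 22 (position 29785115) had the widest range, 24.6 points: 45.0% (18 of 40 reads) at 5 ng, 47.4% (18 of 38) at 10 ng, 22.7% (10 of 44) at 20 ng and 27.3% (78 of 286) at 100 ng. The 5 and 10 ng lists were high and the 20 and 100 ng lists low, with overlapping intervals. The lowest levels at 100 ng among the 16 were those of sites 27 and 32. Site 27 (position 29789724) had 13.6% (8 of 59 reads) at 5 ng, 15.1% (11 of 73) at 10 ng, 12.0% (9 of 75) at 20 ng and 13.3% (54 of 405) at 100 ng. Site 32 (position 29801686) had 11.7% (9 of 77 reads) at 5 ng, 13.8% (11 of 80) at 10 ng, 15.2% (14 of 92) at 20 ng and 13.7% (62 of 452) at 100 ng, where only site 16 had a higher coverage. The levels of site 27 differed by 3.07 points between lists and those of site 32 by 3.53 points, less than the width of any of their intervals.

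The 3 sites with the highest coverage at 100 ng were all under 20% there, but strong sites 30 and 24 came next, with 433 and 424 reads. Site 16 (position 29781494) had 459 reads at 100 ng and 18.3% (84 unconverted), with 17.1% (13 of 76 reads) at 5 ng and 20.7% (18 of 87) at 20 ng. It was not listed at 10 ng. Site 29 (position 29790990), which followed site 32 in coverage, had 10.7% (8 of 75 reads) at 5 ng, 16.0% (15 of 94) at 10 ng and 10.4% (46 of 443) at 100 ng, and was not listed at 20 ng.

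To ask whether the levels of col4a5 depended on the input, each lower list was set against the 100 ng list. No col4a5 site that was listed in both lists passed the test at any input. A site under the 10% needed for listing in either list could not be tested, so the test does not cover every site of the gene. The two-sided Fisher's exact test per site, run where both lists had at least 50 reads and with Benjamini-Hochberg adjustment over all sites of the pair, called 0 of 12 col4a5 sites at 5 ng, 0 of 15 at 10 ng and 0 of 14 at 20 ng. Over all genes it called 0.278% of 7923 sites at 5 ng, 0.0406% of 7385 at 10 ng and 0.15% of 8018 at 20 ng, so a count of 0 among so few sites is near the background. The smallest adjusted p of a col4a5 site was 0.542 for 5 ng, 0.393 for 10 ng and 0.570 for 20 ng. Without adjustment, 1, 2 and 2 col4a5 sites had a p under 0.05 at 5, 10 and 20 ng, against 8.75%, 8.61% and 7.40% of all sites tested. The test compares these libraries and not conditions, since each lower input is 1 library.

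Each of those unadjusted differences was of moderate size. Site 10 differed from 100 ng by -8.27 points at 5 ng (95% interval from -19.7 to -0.592, Fisher's exact p = 0.0404) and by -8.29 points at 20 ng (interval -18.6 to -1.06, p = 0.0328). Site 30 differed by -9.84 points at 20 ng (interval -19.9 to -1.87, Fisher's exact p = 0.0199). At 10 ng site 3 (position 29755378) was 15.5 points above its 100 ng level (interval 3.55 to 28.7, Fisher's exact p = 0.0149) and site 12 (position 29773708) 10.9 points above (interval 1.31 to 24.1, p = 0.0343). Site 12 had 10.2% at 100 ng and was not listed at 20 ng, so it could be compared only where its level reached 10%. None of these passed the adjustment, and a p that misses the threshold does not show that levels were alike. The intervals of the differences of the tested col4a5 sites had a median half-width of 8.87 points at 5 ng, 9.17 at 10 ng and 9.24 at 20 ng, and the widest was 13.8 points. These intervals are not adjusted for the number of sites and cover counting error only. The variance between lower inputs was estimated at 1.42 times the binomial one. With that variance, a z test gave site 10 an unadjusted p of 0.0710 at 5 ng and 0.0517 at 20 ng. The unadjusted z test p was 0.0542 for site 12 and 0.0281 for site 3 at 10 ng, and 0.0357 for site 30 at 20 ng.

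Sites under 50 reads in a lower list stayed out of this test. Among the sites in every list, the mean difference over the 3 lower inputs was largest in size at site 22 (11.1 points above 100 ng), which had under 50 reads in each of them, and at site 5 (6.96 points above), which passed 50 reads at 20 ng only. At a minimum of 20 reads, site 5 at 10 ng was 18.0 points above 100 ng (interval 7.84 to 23.4, Fisher's exact p = 0.00133, adjusted p = 0.197). Site 22 was 17.7 points above at 5 ng (Fisher's exact p = 0.0264, adjusted p = 0.569) and 20.1 points above at 10 ng (p = 0.0140, adjusted p = 0.429), and -4.55 points from it at 20 ng. With the reads of the 3 lower inputs summed, 16 col4a5 sites could be tested and 0 were called (smallest Fisher's exact adjusted p = 0.449), against 0.327% of all 8554 sites. Without adjustment, 2 of the 16, sites 10 and 22, had a p under 0.05 (12.5%), against 9.35% of all sites tested. The summed level was above that at 100 ng at 12 of the 16 sites and below it at 4, with a mean difference of 2.09 ± 3.94 points (SD over sites). These sites had to reach 10% in each lower list. Weak sites whose level came out low there are left out, which can raise the differences. At sites 27 and 32, the weakest of the 16 at 100 ng, the summed level differed by 0.193 and -0.0622 points. The effect of leaving sites out was not tested.

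**Figure D3:**
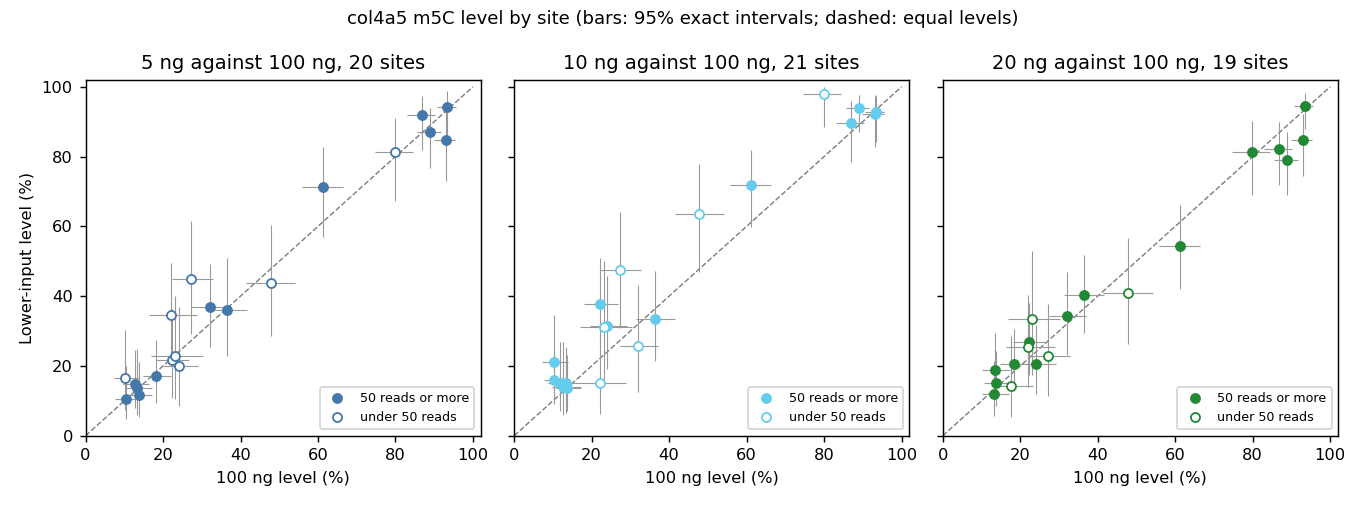
The m5C level (%) of each col4a5 site at 5, 10 or 20 ng (y axis) against its level at 100 ng (x axis), with 95% exact intervals as bars and the dashed line marking equal levels. Filled points have at least 50 reads in the lower list, and no filled point passed the adjusted test. At 10 ng 11 of the 16 sites found in every list lie above the line.

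The 16 sites found in all lists had a median level of 40.3% in the 5 ng list, 42.5% in the 10 ng list, 37.3% in the 20 ng list and 34.2% in the 100 ng list. The comparison between inputs is that of the same site in each list. The mean difference from 100 ng was 1.94 ± 6.68 points at 5 ng (SD over sites), with 8 sites higher and 8 lower. At 10 ng it was 5.42 ± 8.58 points, with 11 higher and 5 lower. At 20 ng it was -1.10 ± 5.55 points, with 8 higher and 8 lower. The mean differences did not follow the order of the inputs, and they were given no test because the sites share transcripts and reads. Weak sites that came out under 10% in a lower list are not among the 16, which can raise these differences. Of the 16, only sites 27 and 32 were under 20% at 100 ng. Their mean differences over the 3 lower inputs were 0.209 and -0.165 points. Sites 22 and 5, with the largest mean differences, were at 27.3% and 79.9% at 100 ng. The effect of this selection was not tested. The 10 ng list gave the highest of the 4 levels at 8 of the 16 sites and the 20 ng list the lowest at 7. The 100 ng list, which has the most reads, gave the highest at 1 and the lowest at 1. Across the 16 sites the levels correlated with those at 100 ng with a Pearson's r of 0.976, 0.963 and 0.986 for 5, 10 and 20 ng, and a Spearman's rho of 0.938, 0.900 and 0.947. These describe sites that share a gene and its reads, and the comparisons share the 100 ng list.

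All 4 lists were also set side by side in 1 test per site, a chi-square test of homogeneity. It was run where a site was listed in each of them with at least 50 reads. It called 0 of the 8 col4a5 sites of this depth, against 0.633% of all 6162 sites tested. The smallest adjusted p of a col4a5 site was 0.270. Without adjustment, 2 of the 8, sites 10 and 30, had a p under 0.05, against 13.1% of all sites tested. With the variance multiplied by 1.42, the chi-square test gave an unadjusted p of 0.125 for site 10 and 0.0679 for site 30. The range of the level over the 4 lists was 1.71 to 24.6 points over the 16 sites, with a median of 11.2.

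The col4a5 sites were unevenly spread. The 35 gaps between neighbouring sites ran from 1 to 11282 nt with a median of 657 nt, 14 of them were at most 60 nt long and the longest lay between sites 9 and 10. Genomic gaps include introns, so the longer ones are not distances in the RNA. Of the 36 sites, 25 (69.4%) had another col4a5 site within 60 nt, against 19.9% of the 22973 sites of other genes. A gene with many sites has more neighbours: in the 166 other genes with at least 10 sites at 100 ng the share was 30.7% of 2518 sites, and 4 of these genes had a share as high as that of col4a5. Of the 25 close sites, 17 were in the 100 ng list and 8 were not, and both sites were in the 100 ng list in 6 of the 16 pairs within 60 nt. These shares are a description with no test, and 60 nt was chosen with the distances known.

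**Figure D4:**
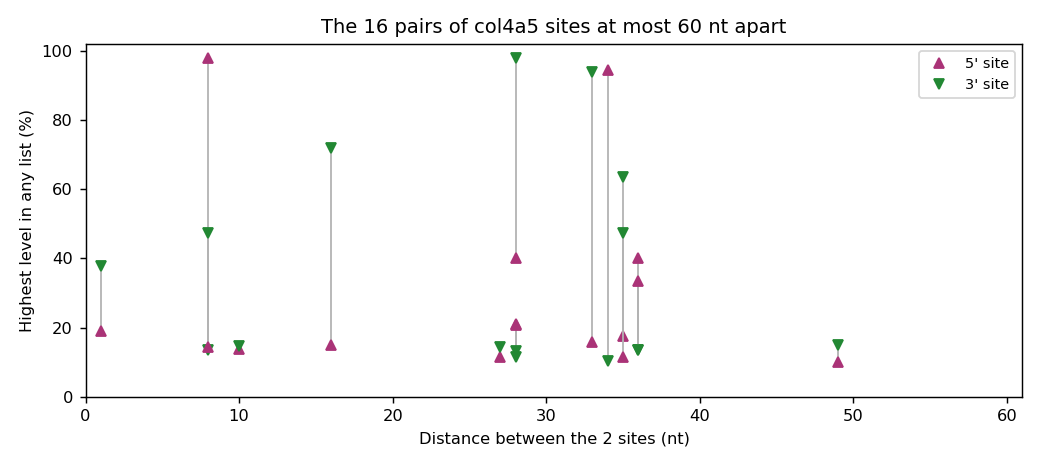
The 16 pairs of col4a5 sites at most 60 nt apart, by the distance between the sites (nt) and the highest level of each site in any list (%), with upward triangles for the 5′ site, downward triangles for the 3′ site and a line joining a pair. Of the pairs, 10 lie at 27 to 36 nt, and 5 hold a strong site next to one of 40.2% or less.

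Each strong site in a close pair stood beside a weaker one. Of the 16 pairs, 5 held 1 of the 6 strong sites, 0 held 2 and the rest held none. With 6 strong sites among 36, no pattern can be read from these counts. They were not tested or set against other genes. The 4 strong sites in these pairs had 5 partners whose levels were 10.3% to 40.2% in any list. Site 28 lay 16 nt from site 27, at 61.2% and 13.3% in the 100 ng list. Site 30 lay 33 nt from site 29, at 88.9% and 10.4%. Site 5 lay 28 nt from site 4 (position 29755783), at 79.9% and 36.4%. Coverage also differed within pairs at 100 ng: site 28 had 340 reads and site 27 had 405, while site 5 had 273 and site 4 had 357.

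The 4 pairs at most 10 nt apart joined sites of similar or unequal level. Sites 2 and 3 (positions 29755377 and 29755378) were adjacent cytosines. Site 2 had 13.8% (9 of 65 reads) at 10 ng, 19.0% (15 of 79) at 20 ng and 13.5% (50 of 371) at 100 ng and was not listed at 5 ng. Site 3 had 21.7% (10 of 46 reads) at 5 ng, 37.7% (23 of 61) at 10 ng, 26.9% (21 of 78) at 20 ng and 22.2% (83 of 374) at 100 ng. The 3′ cytosine of the pair was thus the higher in all 3 lists that held both. Site 6 (position 29755819), 8 nt from strong site 5, was listed at 5 ng (7 of 52 reads, 13.5%) and 10 ng (5 of 48, 10.4%) only. Sites 18 and 19 (positions 29784058 and 29784068) were 10 nt apart and had 13.9% (11 of 79 reads) and 14.8% (12 of 81) at 5 ng. Site 18 was in no other list, while site 19 had 14.0% (7 of 50 reads) at 10 ng and 12.7% (53 of 417) at 100 ng. Site 21 (position 29785107), 8 nt from site 22, was listed at 20 ng only, with 6 of 42 reads (14.3%).

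A Gly-X-Y triplet takes 9 nt of coding sequence, so the distances were also divided by 3 and by 9. Of the 17 pairs up to 150 nt apart, 4 (23.5%) had a distance that is a multiple of 3, 8 (47.1%) left a remainder of 1 and 5 (29.4%) a remainder of 2. In all other genes the shares were 31.1%, 37.3% and 31.6% of 4771 pairs. Multiples of 9 made up 3 of the 17 (17.6%), against 10.4% in other genes. These distances are genomic, and whether a pair lies in the same exon or in coding sequence was not analysed. For this reason, and with 17 pairs that share sites, no excess of whole codons or triplets can be read from these values. The distances of 27 to 36 nt were common, 10 of 16 pairs within 60 nt (62.5%), against 15.5% of 2707 such pairs in all other genes and 17.4% of 470 in the other genes with at least 10 sites. This window was chosen after the distances were seen and got no test. Over sites in every list, it held 1 of 2 pairs within 60 nt. The window held 3 pairs at exactly 28 nt, sites 4 and 5, 12 and 13, and 16 and 17, with the 3′ site given second. Sites 13 (5 of 43 reads at 10 ng) and 17 (10 of 76 reads at 5 ng) were each in 1 list only.

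The genes most like col4a5, by the distance over number of sites, median level and median coverage at 100 ng among 167 genes with at least 10 sites, were llgl1, polq and kmt2d. llgl1, which encodes a cell polarity protein, had 19 sites with a median level of 20.5%, a median coverage of 484 reads and 5 sites of 60% or more (distance 1.24 in units of the SD over genes). polq, the DNA polymerase theta gene, had 28 sites with 17.8%, 853 reads and 3 such sites (distance 1.42). kmt2d, a histone H3 lysine 4 methyltransferase gene, had 22 sites with 16.2%, 135.5 reads and 3 such sites (distance 1.53). The values of col4a5 were 24 sites, 22.7%, 360 reads and 6 such sites. Its median level and coverage were not extreme among these 167 genes, of which 62 had a higher median level and 73 a higher median coverage.

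Other genes of collagen IV and its surroundings had fewer listed sites than col4a5, which was itself chosen for its number of sites. Of the 5 other collagen IV chains searched by symbol, only col4a2, which pairs with the alpha 1 chain in most basement membranes, was listed. It had 4 sites at 100 ng at a median coverage of 38.5 reads and no site at a lower input. In the RefSeq gene table the neighbours of col4a5 are col4a6, a collagen IV chain gene, and irs4, an adaptor gene of insulin receptor signalling. No col4a6 site was in any list, while irs4, on the opposite strand, had 8, 9, 8 and 8 sites at 5, 10, 20 and 100 ng. The nearest irs4 site lay 8930 nt from site 36. A gene with no listed site may have lacked reads or methylation, which cannot be told apart with these lists. For col4a3 and col4a4, whose symbols are not in the RefSeq table either, the gene may also stand under another name. Among other collagens, col18a1 had 9 sites, col24a1 had 3 and col9a3 had 1 at 100 ng. Their median levels were 54.5%, 15.3% and 40.6%, at median coverages of 61, 167 and 32 reads.

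Of 20 genes of collagen biosynthesis and export, 6, 7, 7 and 7 had a site at 5, 10, 20 and 100 ng. Those with the most sites at 100 ng were p3h1, a prolyl 3-hydroxylase of collagen (6 sites, median 33.5%), and then, with 5 sites each, p4ha2, a subunit of prolyl 4-hydroxylase, plod3, a lysyl hydroxylase, and colgalt1, which adds galactose to hydroxylysine. Of 23 genes for cross-linking enzymes and basement membrane partners, 4, 4, 4 and 5 had a site. Here fn1, the fibronectin gene, led with 14 sites at 100 ng, followed by pxdn, whose product cross-links collagen IV, with 5. Of 8 genes for receptors of matrix proteins, 3 had a site in every list, led by dag1 (dystroglycan, 7 sites at 100 ng) and itgb1 (integrin beta 1, 4 sites). Of 9 matrix proteases and inhibitors, 2, 2, 3 and 2 had a site, led by bmp1, a procollagen C-proteinase (7 sites), and furin, a proprotein convertase (2 sites). The share of all genes that have a listed site was not determined, so these counts of genes cannot be called high or low. In the Fisher's exact tests of each lower input against 100 ng, 0 sites of these lists were called, near the background of all sites given above. The sites tested at 5, 10 and 20 ng numbered 14, 14 and 15 for biosynthesis, 19, 16 and 19 for partners, 4, 3 and 5 for receptors, and 5, 5 and 5 for proteases and inhibitors. No site of another collagen IV chain could be tested.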

How the data were processed

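RNA bisulfite sequencing of poly(A) RNA from X. tropicalis stage 0 embryos was analysed from 4 deposited lists. Per the methods of the study, the authors trimmed reads with cutadapt and Trimmomatic, mapped them with HISAT2 to the converted genome (X. tropicalis v9.1, Xenbase) and the rest with Bowtie2 to the converted transcriptome, removed reads with many remaining cytosines, called sites by a one-sided binomial test and combined the 2 libraries of 100 ng. These filters can lower levels in dense clusters. The authors deposited the coverage as a count of reads, the m5C level as a fraction of unconverted reads (printed as a percent), and a p-value of each call, which was not used. The lowest listed coverage was 20 reads and the lowest level 10%. Unconverted reads were level times coverage, whole to within 2.6e-05 reads. Positions are as in the files, with the first base as 0 or 1 not stated.

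Fisher's exact tests (two-sided), chi-square tests of homogeneity and Benjamini-Hochberg adjustment (threshold 0.05) ran over all sites in Python 3.11.15 with numpy 2.4.6, pandas 2.3.3 and scipy 1.17.1. They were also run on simulated binomial counts. These lack the larger variance found between lower inputs, so that run does not show the error rate in these data. Intervals of levels are Clopper-Pearson (95%) and those of differences Newcombe's. Alternatives changed the coverage and level minimums, the variance, the lists included and the summary. Members and lists were chosen with earlier results of these data known. Sites given in full were the 4 highest and 2 lowest levels and 3 highest coverages at 100 ng, the 2 largest mean differences and pairs at most 10 nt apart, and others were added after their values were seen. Gene symbols were those of the files, of which 91.2% of 6783 were in the RefSeq table (UCB_Xtro_10.0), used for names and neighbours only.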

Additional observations from a re-analysis of the deposited data

How the results depend on the processing

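The count of 0 called col4a5 sites held in the tests against 100 ng with a minimum of 20 reads, with the binomial variance multiplied by 1.42 (its estimate between lower inputs) and with lower inputs summed. It also held in the test over the 4 lists with 20 reads, with that variance and without each list in turn (0 to 0). Fisher's exact test at a minimum of 100 reads could not be fitted, as no col4a5 site had that coverage at a lower input, nor could the median level at that depth. The number of listed sites depended on depth: a minimum of 50 reads left 17 sites at 5 ng, and one of 100 reads left 0 at 5 ng, 0 at 10 ng and 0 at 20 ng, against all 24 at 100 ng. A level of at least 20% left 14 sites at 5 ng, 14 at 10 ng and 14 at 100 ng. Taken over all sites of each list rather than those common to the lists, the median was 20.0% at 5 ng, 23.4% at 10 ng, 26.2% at 20 ng and 22.7% at 100 ng, so that the lowest was that of 5 ng and no longer that of 100 ng. The share of pair distances that are multiples of 3 was 0% over sites in every list, which left 2 pairs. With a level of at least 20% in every list, the median was 45.0%, 63.4%, 40.9% and 47.8% at 5, 10, 20 and 100 ng. The mean level weighted by reads was 51.0%, 55.7%, 48.8% and 49.6%. In both cases the lowest was that of 20 ng, so the order of the lists depended on the summary. At 10 ng the median was 42.5% over the 16 sites and 63.4% over the 13 with at least 20% in every list. The remaining alternatives moved a count by under 1.5 times. No paired analysis was possible because each lower input is 1 library and the 2 libraries of 100 ng share 1 set of values. No col4a5 site had more than 97 reads at a lower input. Among the largest differences at 10 ng, 15.5 points (site 3), 18.0 points (site 5, under 50 reads) and 20.1 points (site 22, under 50 reads) were not called. At a minimum of 20 reads, their Fisher's exact p was 0.0149, 0.00133 and 0.0140 without adjustment and 0.438, 0.197 and 0.429 with it. Whether more reads would have changed these calls was not tested.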
